A study of Homo sapiens with 2 samples.

Results

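The cells described here are 1005 of the 9348 cells kept from 2 single-cell libraries of vehicle-treated HepaRG cells. They were chosen by a score over 7 genes: CXCL13, KCNJ16, SOX6, RIPOR2, THSD4, ADRA1A and CYP4F22. The score was the mean of ln(1 + UMIs per 10000) over these genes, where a UMI is a counted mRNA molecule. It was computed in 4017 cells. Each of them passed minimums of 500 genes and 1000 UMIs per barcode and a limit of 25% on mitochondrial UMIs. Each also had under 5 UMIs of the albumin gene ALB, and under 5 UMIs of the division genes TOP2A, MKI67 and CENPF together, per 10000. The members are the 25% of these cells with the highest score in each library, 493 in replicate 1 and 512 in replicate 2. They were compared with the cells at or below the median score, called low-score cells (986 and 1023 cells), and with the mid-score cells between (492 and 511). The 1630 cells with more ALB (ALB-high cells) and the 3701 dividing cells with little ALB served as further references. ALB-high cells had no limit on the division genes, so dividing cells were not removed from them.

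HepaRG is an established human liver line whose cultures hold both hepatocyte-like cells and flatter cells with biliary or progenitor features. Hepatocytes secrete albumin and most plasma proteins, and in inflammation they raise a set of secreted proteins, the acute phase proteins, mainly through IL-6 with STAT3, IL-1 with NF-kB, and C/EBP factors. The 7 genes of the score have unrelated known roles. CXCL13 is a chemokine that draws B cells through the receptor CXCR5, and KCNJ16 is an inwardly rectifying potassium channel subunit of epithelia. SOX6 is a transcription factor, RIPOR2 an inhibitor of small GTPase signalling, and THSD4 a secreted protein of the fibrillin microfibril. ADRA1A is the alpha-1A adrenergic receptor, which signals through Gq and is known in liver for glycogen breakdown, and CYP4F22 is a fatty acid hydroxylase needed for epidermal ceramides.

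The study exposed differentiated HepaRG cells to agents that set off known stress responses, per its design text, and only the vehicle group was analysed here, so no treatment was compared. The labels give tissue liver and cell type hepatocyte, vehicle (DMSO), 24 h. Both libraries came from cells held in culture for 7 days and then given 0.1% DMSO for 24 h. The cells were dissociated with inhibitors of transcription and translation present, fixed, and captured with a 10x Genomics 3′ kit with 10000 cells loaded. Both libraries carry the label biological replicate 1, so differences between them may be technical. The p-values below rest only on how class differences varied between these libraries, with estimates of that spread partly pooled over genes.

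Replicate 1 held 85475317 UMIs in 4591 barcodes and replicate 2 held 57246647 in 4998. The libraries shared 7 barcodes, of which 0 were members in either library. Members had a median of 15074 and 9330.5 UMIs per cell in replicates 1 and 2, against 16093 and 9274 in low-score cells. Their median mitochondrial share was 10.8% and 10.9%, against 8.10% and 8.35% in low-score cells and 12.1% and 12.6% in ALB-high cells. Whether this share has a part in the results below was not tested.

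The score ran without a gap through the edge of the member group. The lowest member score was 0.568 in replicate 1 and 0.527 in replicate 2. The 50 members nearest that edge had a median of 0.581 and 0.543, and the 50 cells just outside it 0.551 and 0.511. Within 5% of the edge lay 85 and 82 cells. The members are therefore a range of the score, and a separate cell type was not defined by it.

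The levels of the score genes chose the cells, so they are given as a description with no test. Levels are a gene's UMIs per 1000000 of a class's summed UMIs (CPM), in replicates 1 and 2 in that order. CXCL13 stood at 218 and 146 CPM in members and at 2.09 and 1.12 in low-score cells. KCNJ16 stood at 115 and 109 against 7.76 and 5.79. SOX6 stood at 420 and 364 against 46.6 and 41.2. Each of these ranges lay well apart in both libraries. RIPOR2 stood at 362 and 328 against 18.2 and 15.3 CPM. ADRA1A stood at 167 and 172 against 8.31 and 8.32. CYP4F22 stood at 152 and 149 against 15.1 and 12.7, so that these 3 genes were also separated in both libraries. THSD4 differed least, at 216 and 236 CPM in members, 114 ± 2.50 (SD, n = 2) in low-score cells and 219 ± 4.11 (SD, n = 2) in mid-score cells.

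The score genes were not confined to the members. ALB-high cells held more KCNJ16 (155 and 144 CPM) and more ADRA1A (242 and 229 CPM) than members did. They held less CXCL13, at 73.7 and 67.6 CPM, and less RIPOR2, at 86.5 and 87.7 CPM. SOX6 at 330 and 294 CPM and CYP4F22 at 117 and 111 CPM lay below the members but far above low-score cells. In dividing cells KCNJ16, ADRA1A and CYP4F22 were at 10.2 to 18.4 CPM. RIPOR2 was thus the score gene with the widest gap between members and ALB-high cells.

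**Figure D1:**
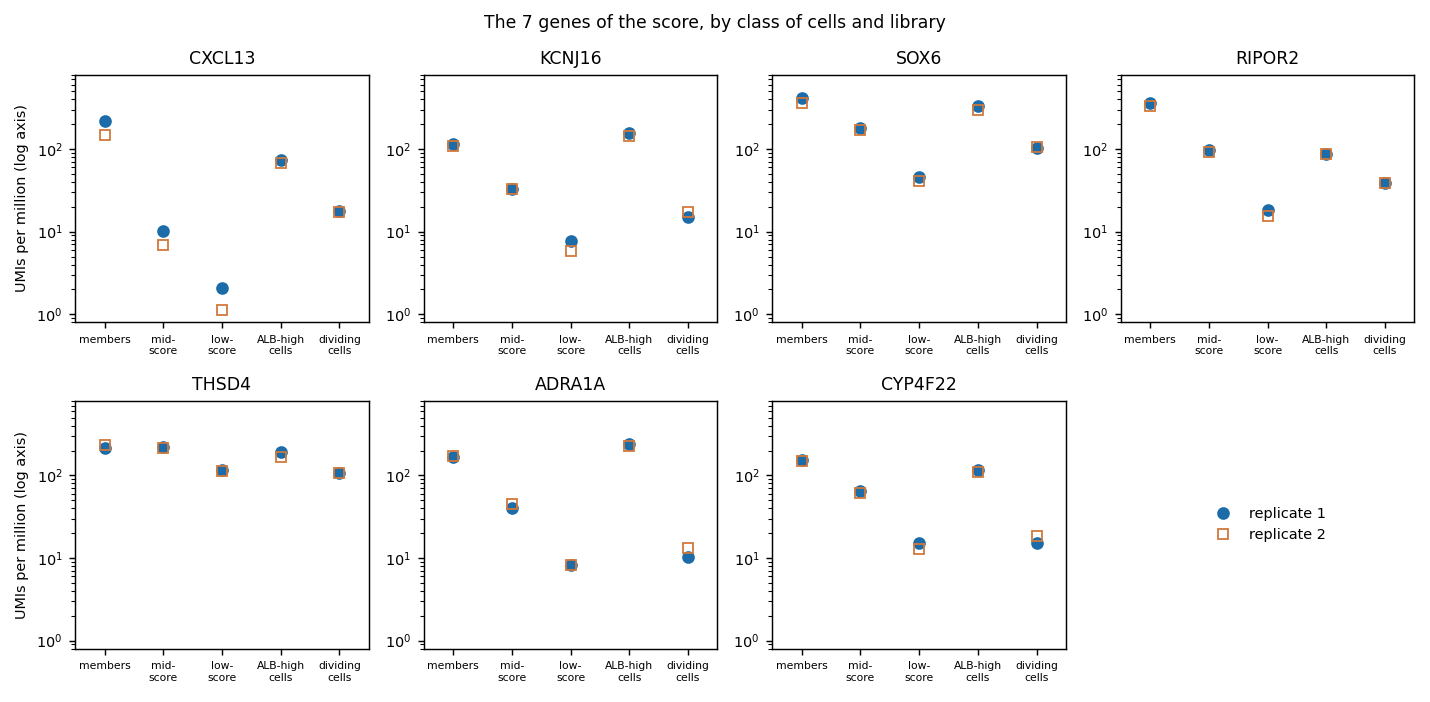
Level of each score gene in UMIs per 1000000 (log axis) in the 5 classes of cells, with 1 point per library. Members lie above low-score cells for all 7 genes because these genes chose them; THSD4 has the smallest gap, and for KCNJ16 and ADRA1A the ALB-high cells lie above the members.

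Each gene was also measured in cells scored with the other 6. The 7 genes had been picked together from groups found in these same cells, so this is a description of how evenly they went together and no test. CXCL13 was 21.7 and 9.29 times higher in the 25% of cells with the highest score than in those at or below the median. The ratio was 5.56 and 5.90 for KCNJ16 and 6.68 and 5.62 for ADRA1A. It was 4.35 and 4.27 for CYP4F22, 3.80 and 3.12 for SOX6, and 3.76 and 3.47 for RIPOR2. For THSD4 it was 0.914 and 0.963. THSD4 alone of the 7 was not higher in cells scored with the others, in either library.

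**Figure D2:**
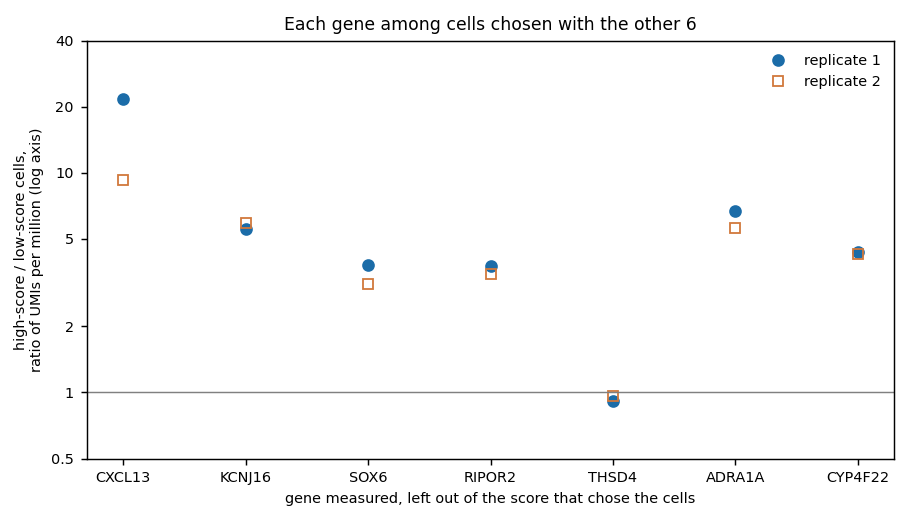
Ratio of CPM (log axis) between high-score and low-score cells for each gene when the score was built from the other 6 genes, with 1 point per library and a line at 1. THSD4 is the only gene of the 7 below 1, at 0.914 and 0.963.

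CXCL13 was found in the fewest members of the 7 score genes. It had a UMI in 131 of 493 members in replicate 1 (26.6%, exact binomial 95% interval 22.7 to 30.7) and in 109 of 512 in replicate 2 (21.3%, 17.8 to 25.1). Low-score cells, with similar median depths, had it in 2.54% (1.65 to 3.72) and 0.880% (0.403 to 1.66), and dividing cells in 5.48% and 6.01%. ALB-high cells came nearest, at 18.1% (15.4 to 21.1) and 16.8% (14.4 to 19.4). With every cell thinned to 4000 UMIs and shallower cells left out (2 and 11 members), the members' shares were 17.7% and 17.0% and those of ALB-high cells 9.38% and 9.90%. CXCL13 was among the score genes that chose the members, so its gap to low-score cells is a description and no test. The intervals cover counting error only, since they treat the cells of a library as separate draws. SOX6, in contrast, was found in 93.1% and 87.5% of members.

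A small group of cells carried most of this chemokine mRNA. In replicate 1, 55 members with at least 10 CXCL13 UMIs held 86.9% of the members' CXCL13, and in replicate 2 31 such members held 70.4%. The highest member had 175 UMIs in replicate 1 and 38 in replicate 2. Members held 47.3% and 37.1% of all CXCL13 UMIs in the libraries, and ALB-high cells held 31.6% and 39.8%. Members carried a median of 3 of the 7 genes at 4000 UMIs per cell, against 1 in low-score cells and 3 and 2 in ALB-high cells. With all UMIs kept, all 7 were detected in 3.25% and 2.34% of members and in 4.93% and 2.33% of ALB-high cells. A gene with 0 UMIs may still have been expressed, and these shares depend on depth.

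The starts of CXCL13 are shown because this gene ranged from 0 to 175 UMIs among members. The gene lies on chromosome 4 at 77511753 to 77611834 (GENCODE 29, plus strand, GRCh38), and RefSeq (GRCh38.p14) gives it 2 starts. The 250 bases before each start follow, on the plus strand, with every TATAAA in capitals. The first window holds it 181 bases before the start and the second 151 and 35 bases before.
CXCL13, chr4:77511503-77511752: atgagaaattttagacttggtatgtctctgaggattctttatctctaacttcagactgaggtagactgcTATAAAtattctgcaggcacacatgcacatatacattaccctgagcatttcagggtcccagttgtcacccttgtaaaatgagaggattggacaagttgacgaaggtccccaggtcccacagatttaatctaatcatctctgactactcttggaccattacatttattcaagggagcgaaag
CXCL13, chr4:77605570-77605819: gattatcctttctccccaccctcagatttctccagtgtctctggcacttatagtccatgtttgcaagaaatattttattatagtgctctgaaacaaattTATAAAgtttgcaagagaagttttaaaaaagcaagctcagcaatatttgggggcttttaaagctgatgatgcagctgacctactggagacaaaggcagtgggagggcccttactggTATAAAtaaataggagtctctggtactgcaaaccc
Over 35116 such windows of all genes, 6.80% hold TATAAA on the strand of the gene. RefSeq windows of 250 bases before to 50 after a start were on hand for 6 of the 7 score genes, 19 windows in all. In these 300-base windows AACAAT, a core SOX motif, occurred on either strand in 4, all of KCNJ16 or SOX6, against 10.1% of all windows. TATAAA occurred in 5 (CXCL13 and SOX6; 7.33% of all windows), the forkhead motif TGTTTAC in 1 (SOX6; 3.42%), the C/EBP motif TTGCNNAA in 1 (RIPOR2; 10.5%) and an NF-kB motif in 0 (0.558%). A match of letters describes the window only.

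Markers of other cell types were read from 6 lists to see what the members resemble. Of 20 epithelial genes, 15 were abundant enough to be tested, and against low-score cells 3 were higher and 7 lower in members, with the test described below. Of all genes tested, 20.9% were higher and 23.2% lower, so the higher epithelial genes are no more than that share. The keratin KRT19 was at 510 and 543 CPM in members and at 951 and 1028 in low-score cells. KRT8 was at 633 and 642 against 964 and 983 CPM, and KRT18 at 333 and 344 against 449 and 481. These simple-epithelium keratins were therefore plentiful in members, yet lower than in low-score cells in both libraries. ELF3, an epithelial transcription factor, was higher, at 12 and 10.7 against 3.08 and 4.36 CPM. EPCAM was at 0.251 and 0.191 CPM, and KRT23, ESRP1 and GRHL2 had 0 UMIs in members. The epithelial markers do not single out these cells, which are named here by their score and leading genes.

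Of 17 biliary or progenitor genes, 10 were tested, 2 were higher and 4 lower in members, with 20.9% and 23.2% over all genes. AFP, the fetal counterpart of albumin, was at 2.63 and 2.10 CPM in members and 5.67 and 6.50 in low-score cells. SOX4 was lower, at 70.8 and 70.4 against 95.0 and 93.5 CPM, while SOX9 was higher, at 9.90 and 7.06 against 3.69 and 4.57. Both calls of higher genes, SOX9 and SPP1, were lost with DESeq2 in place of edgeR. The summed level of the list was 997 and 1057 CPM in members, 1474 and 1537 in low-score cells and 829 and 886 in ALB-high cells.

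Mesenchymal genes gave a mixed picture. Of 12 genes 10 were tested, 1 was higher and 6 lower in members, beside 20.9% and 23.2% of all genes. The summed level was 290 to 301 CPM in members and 313 in low-score cells. TAGLN, an actin-binding protein, fell by 2.01 on the log2 scale and PDGFRB, a growth factor receptor, by 1.75. SPARC was at 40.5 and 42.0 CPM in members and 72.4 and 67.2 in low-score cells. DCN, the proteoglycan decorin, was higher in members, at 109 and 103 against 64.7 and 65.6 CPM, with 13.2 and 14.2 in ALB-high cells. COL1A2 had 0 UMIs in members and THY1 stood at 0 and 0.191 CPM.

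Most endothelial and immune genes were near 0. Of 9 endothelial genes 3 were tested, and KDR, the VEGF receptor, was higher in members at 69.2 and 52.9 against 23.6 and 23.4 CPM. VWF was at 0.125 and 0 CPM, and CDH5 and CLDN5 had 0 UMIs in members. Of 10 immune genes, 8 were below 1 CPM in members, PTPRC stood at 0.376 and 0 CPM, and CD3E, MS4A1, LYZ and NKG7 had 0 UMIs. CD68, a lysosomal protein of macrophages and other cells, was lower in members, at 7.52 and 6.68 against 13.3 and 11.5 CPM.

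Members and low-score cells were compared over all genes with edgeR's quasi-likelihood test on UMIs summed per library and class, with the library as a block. A gene was called at a Benjamini-Hochberg adjusted p under 0.05. The 7 score genes, ALB and the 3 division genes, all used in the choice, were left out of the adjustment and the calls. Of 15840 genes tested, 3306 (20.9%) were higher and 3667 (23.2%) lower in members, 544 and 610 of them by at least 2-fold. Against the mid-score cells 1228 (7.75%) were higher and 1420 (8.96%) lower. The median log2 fold change over all genes was -0.0015. The score genes were taken from groups that had been found in these same cells, so these calls describe how the 2 classes differ in both libraries and are not independent evidence that the classes exist.

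Among genes at 20 CPM or more, most of the highest fold changes were of secreted liver proteins of the acute phase. Among the 12 highest called genes at 20 CPM or more, HP, ORM1, ORM2, SAA2, SERPINA3, LBP and the 3 fibrinogen chains FGA, FGB and FGG made up 9. The other 3 were AC005208.1, the kinase gene SGK2 and KCND3, a potassium channel subunit. SGK2 was at 47.2 and 39.9 CPM in members and 9.11 and 8.93 in low-score cells. KCND3 was at 26.3 and 28.4 against 6.65 and 4.06 CPM, and AC005208.1 at 22.9 and 23.9 against 2.28 and 2.33.

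HP, the hemoglobin scavenger haptoglobin, was at 109 and 170 CPM in members, 37.0 and 36.2 in mid-score cells and 9.73 and 10.5 in low-score cells. Its log2 fold change over low-score cells was 3.73 ± 0.10 (SE, edgeR adjusted p = 5.42e-25). FGG was at 296 and 322 against 22.8 and 36.2 CPM, a log2 fold change of 3.44 ± 0.08 (SE). ORM1, the plasma glycoprotein orosomucoid, was at 706 and 713 against 88.6 and 88.6 CPM, a log2 fold change of 2.99 ± 0.06 (SE). In each case the lowest member value lay far above the highest low-score value.

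The other acute phase genes moved the same way. Of 20 genes on the list, 17 were tested, 16 rose and 0 fell, with a median log2 fold change of 2.67, and 15 of them also rose against mid-score cells. The background of genes called higher was 20.9%. SAA1, the apolipoprotein serum amyloid A1, was at 1200.2 and 1256 CPM in members against 264 and 260. LBP, which binds bacterial lipopolysaccharide, was at 108 and 121 against 14.3 and 14.4 CPM. SERPINA3, a protease inhibitor, was at 83.6 and 98.8 against 15.3 and 9.44 CPM. HPX was the tested gene with no call, at 1.3 and 0.954 against 0.616 and 0.406 CPM. CRP, ITIH3 and HAMP, which are acute phase genes of adult liver, were below 0.4 CPM in members. SAA1 and SAA2, and ORM1 and ORM2, are near-identical copies, so how reads were split within each pair is uncertain. The summed list stood at 3542 and 3813 CPM in members and 663 and 682 in low-score cells.

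**Figure D3:**
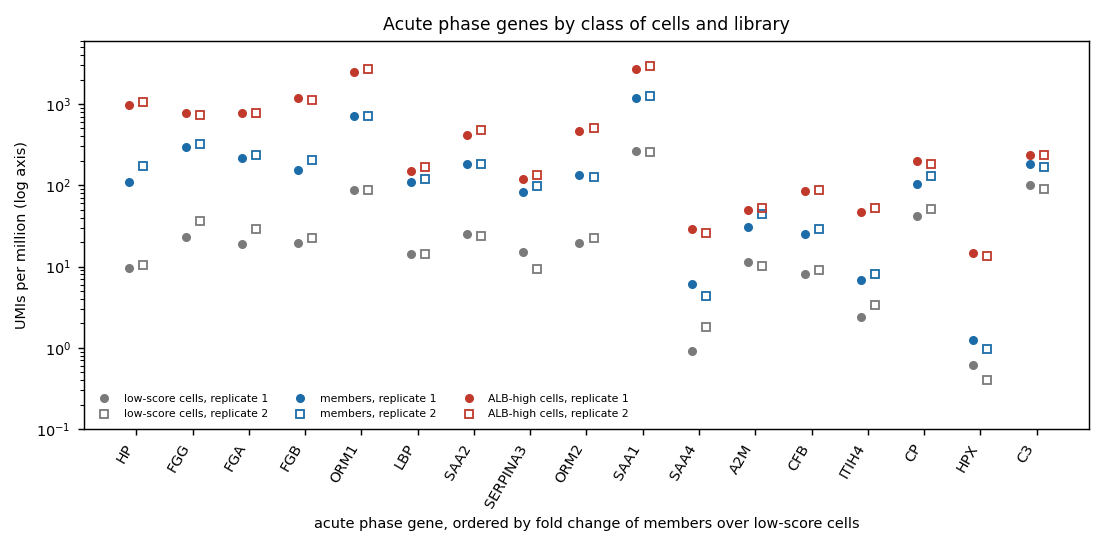
Level of the 17 tested acute phase genes in UMIs per 1000000 (log axis) in low-score cells, members and ALB-high cells, with 1 point per library. For every gene shown both members' points lie between those of low-score cells and those of ALB-high cells; HPX is the 1 gene of the 17 that was not called.

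The promoters of these genes are shown for FGA and FGB, neighbouring fibrinogen genes on chromosome 4 whose RefSeq windows (GRCh38.p14) hold known acute phase motifs. RefSeq windows were on hand for 9 of the 17 tested genes, 10 windows in all. The motifs searched on both strands were TTGCNNAA (C/EBP), TTCCNGGAA (STAT), an NF-kB motif and 1 further motif, with TATAAA on the gene's strand. The 250 bases before the start follow, 5′ to 3′ on the gene's strand, with matches in capitals.
FGA, chr4:154590743-154590992, minus strand: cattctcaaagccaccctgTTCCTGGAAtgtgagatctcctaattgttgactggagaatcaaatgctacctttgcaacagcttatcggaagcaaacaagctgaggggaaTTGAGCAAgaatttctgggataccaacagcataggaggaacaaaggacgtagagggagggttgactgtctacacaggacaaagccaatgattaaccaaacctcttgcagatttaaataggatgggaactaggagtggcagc
FGB, chr4:154562730-154562979, plus strand: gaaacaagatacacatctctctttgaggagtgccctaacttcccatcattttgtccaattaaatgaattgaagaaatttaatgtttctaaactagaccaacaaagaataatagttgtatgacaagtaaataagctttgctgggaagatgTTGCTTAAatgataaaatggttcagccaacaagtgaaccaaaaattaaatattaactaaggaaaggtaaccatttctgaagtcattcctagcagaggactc
In FGA the STAT motif begins 231 and the C/EBP motif 141 bases before the start, and in FGB the C/EBP motif 101 bases before the start shown. FGB has a further start, and the same C/EBP letters begin 132 bases before it. The windows of the fibrinogen gene FGG and of ITIH4 and SERPINA3 held none of the motifs searched. The C/EBP letters occurred in 4 of the 9 genes (FGA, FGB, HPX and SAA4), against 11% of 27305 genes. The STAT letters occurred in 2 of the 9 (CFB and FGA), against 1.21%, and the TATAAA letters in 2 (CFB and ORM1), against 8.38%. The NF-kB motif and the further motif occurred in 0 of the 9.

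Hepatocyte genes were read from a list of their own. Of 20 listed genes 13 were tested, 9 rose and 0 fell, beside 20.9% and 23.2% of all genes. Of the 9, 4 are the acute phase genes HP, FGA, FGB and FGG. APOB, the protein of VLDL, was at 607 and 628 CPM in members against 228 and 214. SERPINA1, the elastase inhibitor alpha-1-antitrypsin, was at 254 and 289 against 105 and 114 CPM, and RBP4, the retinol carrier, at 252 and 282 against 211 and 214. APOA1, APOC3, TTR and TF were not called. TTR, for example, was at 8.27 and 8.01 CPM in members and 8.01 and 7.82 in low-score cells, with 87.4 and 84.9 in ALB-high cells. AHSG stood at 0.125 and 0 CPM in members and ASGR1 at 0.125 and 0.191.

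The members' ALB level was held down by the rule, at 78.6 and 95.6 CPM against 43.0 and 50.2 in low-score cells and 9459 and 9262 in ALB-high cells. The ALB UMI was absent from 46.0% and 52.5% of members and from 54.0% and 64.4% of low-score cells. With the score and classes made anew in cells with 0 ALB UMIs, an alternative added after the data were seen, 15 of 16 tested acute phase genes and 9 of 13 hepatocyte genes still rose. Among all genes in that setting 16.4% rose. ALB-high cells exceeded members 120 and 96.9 times for ALB and 38.2 and 37.6 times for APOH. They exceeded them 8.99 and 6.30 times for HP, 2.61 and 2.25 for FGG, 1.37 and 1.38 for LBP and 1.31 and 1.44 for the complement gene C3. These ratios differed widely by gene in both libraries, and the part of free RNA in them was not tested.

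Against ALB-high cells, in a fit of all 5 classes added after the data were seen, 2751 of 17207 genes (16%) were higher in members and 3212 (18.7%) lower. The limit on division genes held for members but not for ALB-high cells. All 16 tested G2 and M phase genes were lower in members, with TPX2 at 16.3 and 22.9 CPM against 127.5 and 113.3. The part of this limit in the other calls was not tested. All 17 acute phase genes and all 13 tested hepatocyte genes were lower in members than in ALB-high cells. The difference was -3.00 on the log2 scale for HP and -0.54 for LBP. Of the 22 tested microfibril and TGF-beta genes 10 were higher and 3 lower than in ALB-high cells, and of the 10 mesenchymal genes 7 were higher and 0 lower. Both acute phase and hepatocyte sums of the members lay between those of low-score and ALB-high cells.

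Hepatic transcription factors and SOX genes were mostly low in level. Of 24 listed genes 21 were tested, 9 rose and 1 fell, beside 20.9% and 23.2% of all genes. Their median log2 fold change was 0.49. SOX5, the closest relative of SOX6 on the list, was at 101 and 83.4 CPM in members against 40.1 and 38.7. NR1H4, the bile acid receptor FXR, was at 4.01 and 2.67 against 0.616 and 0.508 CPM, and at 75 and 72.4 in ALB-high cells. CEBPB, a C/EBP factor of the acute phase, was at 242 and 229 against 200 and 208. In cells with 0 ALB UMIs 2 of 15 were higher, near the 16.4% of all genes there, and DESeq2 called 4 of 21, where it called 9.19% of all genes higher and 10.7% lower.

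Genes around the individual score genes were read next, from lists of their families and pathways. Around CYP4F22, 6 of 7 tested CYP4 and ceramide genes rose and 0 fell, beside 20.9% and 23.2% of all genes. CYP4B1 was at 9.65 and 8.21 CPM in members against 2.40 and 2.13, CYP4F12 at 25.8 and 28.6 against 11.6 and 10.7, and CYP4F3 at 33.7 and 30.7 against 15.0 and 12.7. ABCA12, the ceramide transporter of skin, was at 33.3 and 32.1 against 21.5 and 17.7 CPM. The other epidermal genes CERS3, ALOX12B, ALOXE3, PNPLA1, ELOVL4, SDR9C7 and NIPAL4 were below 1.1 CPM in both classes. The CYP4F genes are close copies, so reads may be split between them.

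Around KCNJ16, 5 of 13 tested ion transport genes rose and 1 fell, beside the same 20.9% and 23.2% of all genes. STK39, the kinase SPAK that activates chloride cotransporters, was at 604 and 560 CPM in members against 239 and 218, a log2 fold change of 1.34 ± 0.04 (SE). The sodium pump subunit ATP1B1 was at 539 and 534 against 372 and 347 CPM. The bicarbonate cotransporter SLC4A4 also rose, with a log2 fold change of 0.72. Of the other inward rectifiers listed, KCNJ1 had 0 UMIs in all 5 classes, and KCNJ10, the usual partner of KCNJ16, was at 0 and 0.191 CPM in members. No other KCNJ gene tested was called.

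Around ADRA1A, 5 of 13 tested adrenergic and Gq genes rose and 3 fell, where 20.9% of all genes were higher and 23.2% lower. The IP3 receptor ITPR2 was at 83.2 and 89.7 CPM in members against 45.1 and 39.4. The Gq effector PLCB1 was at 231 and 223 against 147 and 144 CPM, and the kinase PRKCE at 318 and 279 against 224 and 211. PRKCA fell, at 184 and 197 against 270 and 259 CPM. The other adrenergic receptors ADRA1B, ADRA1D, ADRA2A, ADRA2B, ADRA2C, ADRB1 and ADRB3 were below 1 CPM in members.

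Around RIPOR2, 3 of 15 tested genes of small GTPase signalling rose and 7 fell; the 3 are near the 20.9% of all genes called higher. RAC1 was at 296 and 306 CPM in members against 418 and 414, RHOA at 211 and 217 against 269 and 267, and CDC42 at 145 and 140 against 198 and 204. These are the small GTPases that organise actin. RHOU rose, at 12.2 and 11.3 against 7.51 and 8.22 CPM, a call lost with DESeq2.

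Around THSD4, 13 of 22 tested microfibril and TGF-beta genes fell and 1 rose, with a median log2 fold change of -0.60, against a background of 23.2% of genes called lower. THBS1, thrombospondin 1, was at 31.0 and 36.4 against 118 and 117 CPM, and TGFBI at 137 and 146 against 295 and 309. CCN1 was at 114 and 122 against 255 and 262 CPM. The fibrillin FBN2 and TGFB2 were not called, at 6.64 and 7.63 against 8.62 and 7.61 CPM and at 99.6 and 102 against 111 and 100.

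Around CXCL13, 5 of 11 tested chemokine genes and receptors rose and 4 fell, beside 20.9% and 23.2% of all genes. CXCL3 was at 15.3 and 12 CPM in members against 8.01 and 9.14, and CCL2, the monocyte chemokine, at 3.51 and 5.15 against 8.25 and 10.4. ACKR3, a scavenging receptor, was at 42.4 and 42.2 against 72.4 and 66.6 CPM. DESeq2 called 0 of the 11 higher and 2 lower, where it called 9.19% of all genes higher and 10.7% lower. The CXCL13 receptor CXCR5 was at 1.00 and 0.954 CPM in members and 0.677 and 1.02 in low-score cells. CXCL9 and CXCL12 had 0 UMIs in members. Of 24 tested NF-kB and TNF receptor genes 4 rose and 8 fell, and DESeq2 called 1 and 0. The 4 that rose are no more than the share of all genes called higher. BIRC3, an NF-kB target, was at 196 and 150 against 159 and 137 CPM, and NFKBIZ, a coactivator of acute phase genes, at 8.15 and 11.4 against 5.17 and 5.79.

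The lowest called genes at 20 CPM or more were led by a hair keratin and by matrix genes. KRT81 was at 1.00 and 2.67 CPM in members, 8.72 and 8.64 in mid-score cells and 37.0 and 32.5 in low-score cells, a log2 fold change of -4.39 ± 0.20 (SE, edgeR adjusted p = 6.84e-19). POSTN, the matrix protein periostin, was at 161 and 120 CPM in members against 669 and 714. SCG5, a chaperone of prohormone convertase, was at 28.3 and 23.1 against 94.7 and 89.0. KRT81 was nearly absent from ALB-high cells too, at 0.570 and 2.05 CPM. The 12 lowest genes at that level also held THBS1, CREB5, AC010343.3, DGKI, LINC02742, IGF2BP3 and CLSPN, with log2 fold changes of -1.83 to -1.71.

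Replication genes were lower in members than in low-score cells, although dividing cells had been left out of both. Of 19 S phase genes tested, 18 fell and 0 rose, with a median log2 fold change of -1.11, and 18 also fell against mid-score cells. The shares of all genes called lower were 23.2% and, against mid-score cells, 8.96%. CLSPN, which signals stalled replication forks, was at 21.4 and 28.6 CPM in members against 76.0 and 84.1. CDC6, which loads the replicative helicase, was at 8.77 and 12 against 25.9 and 29 CPM. PCNA, the polymerase clamp, was at 118 and 125 against 180 and 191, and RRM2, which makes deoxyribonucleotides, at 14.4 and 22.7 against 45.8 and 53.2. In dividing cells PCNA was at 237 and 240 CPM.

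Of 16 tested G2 and M phase genes, 13 fell and 1 rose, beside 23.2% and 20.9% of all genes. TPX2, a spindle assembly factor, was at 16.3 and 22.9 CPM in members against 50.3 and 57.6, and CDK1, the mitotic kinase, at 5.51 and 7.82 against 17.2 and 21.6. Since the rule had used TOP2A, MKI67 and CENPF, the comparison was repeated in cells with 0 UMIs of these 3 genes: 17 of 19 S phase genes still fell, and 6 of 12 tested G2 and M genes. In those cells 13% of all genes were called lower. The median log2 fold change of the 12 G2 and M genes was -1.06, and that of the 16 genes tested in all scored cells was -0.85. Of 17 tested G1 cyclins, cell cycle inhibitors and quiescence genes, 3 were higher and 6 lower. The 3 are no more than the 20.9% of all genes called higher. The G1 cyclin gene CCND3 was at 165 and 153 against 99.5 and 101 CPM, the quiescence gene BTG1 at 122 and 121 against 89.0 and 88.6, and CDKN1A, the inhibitor p21, at 282 and 294 against 338 and 336. CDKN1C had 0 UMIs in members.

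Stress response genes were read because the study was built around them, beside 20.9% of all genes called higher and 23.2% called lower. Of 17 tested ATF4 target genes, 14 fell and 1 rose, with a median log2 fold change of -0.61. CHAC1 was at 0.627 and 1.34 CPM in members against 4.06 and 3.76, the pseudokinase TRIB3 at 9.15 and 8.21 against 19 and 18.9, and PSAT1, of serine synthesis, at 58.1 and 59.7 against 95.6 and 98.8. DESeq2 called 8 of the 17 lower, against 10.7% of all genes. In cells with 0 UMIs of the 3 division genes 7 of 15 fell, against 13% of all genes. Of 20 unfolded protein response genes 11 fell and 0 rose, with small changes such as HSPA5, the chaperone BiP, at 345 and 343 against 460 and 435 CPM. Of 20 heat shock genes 10 fell and 4 rose. Among those that fell, DNAJB4 was at 32.6 and 25 against 61.2 and 73.4 CPM.

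The remaining stress lists were split, beside 20.9% of all genes called higher and 23.2% called lower. DESeq2 called 9.19% of all genes higher and 10.7% lower. Of 21 p53 targets 7 rose and 8 fell: MDM2 was at 1008 and 956 CPM in members against 819 and 796, and GDF15, a secreted stress hormone, at 91.9 and 106 against 170 and 182. Of 19 NRF2 targets 9 rose and 6 fell, with AKR1C2 at 362 and 334 against 216 and 192 CPM and SLC7A11, the cystine carrier, at 41.9 and 49.8 against 108 and 106. AKR1C2 has close copies that may share its reads. Of 19 hypoxia genes 8 rose and 1 fell, of which DESeq2 called 3 and 1. CA9 was at 12 and 16 against 7.88 and 6.60 CPM, and its log2 fold change was -0.25 against mid-score cells, a reversal of sign that was not called. Of 18 immediate early genes 9 fell and 3 rose; KLF6 was at 24.4 and 34.5 against 56.1 and 52.8 CPM, and FOS at 13.0 in both libraries against 6.22 and 7.71. DESeq2 called 4 and 1 of them.

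Of 15 tested retinoic acid genes 5 rose and 3 fell, and ALDH1A1, which makes retinoic acid, was at 135 and 160 CPM in members against 67.4 and 72.0. Of 14 tested Wnt and Notch genes 3 rose and 7 fell. For both lists the share over all genes was 20.9% higher and 23.2% lower, and the 3 are near it. JAG1, a Notch ligand, was at 13.7 and 10.5 against 25.7 and 28.7 CPM, and NOTUM, a Wnt inhibitor and target, at 0.627 and 0.572 against 2.89 and 2.94.

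**Figure D4:**
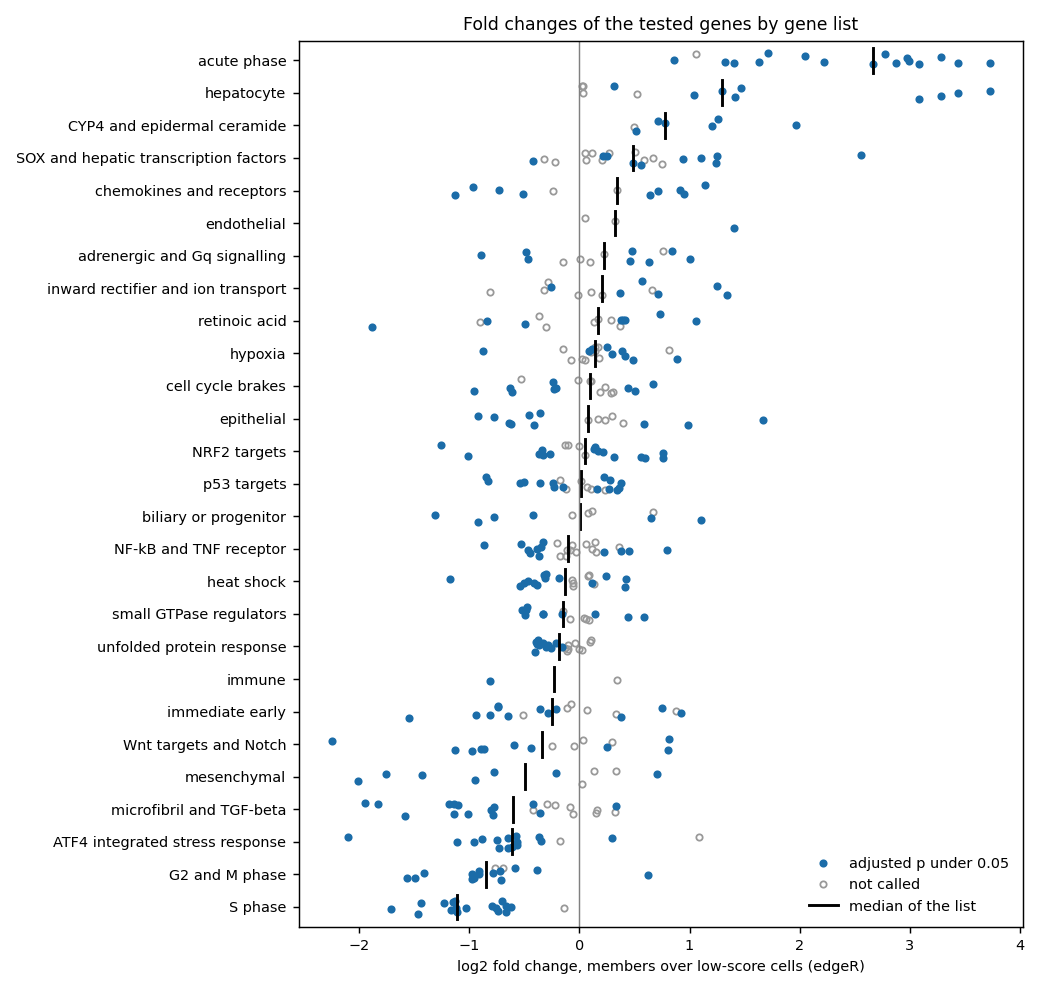
Log2 fold change of members over low-score cells (x axis) for the tested genes of 27 lists, ordered by their median (black bar); filled points have an adjusted p under 0.05. The acute phase list has the highest median at 2.67 and the S phase list the lowest at -1.11, while most other lists straddle 0.

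Genes higher in members than in every other class were sought after the values had been seen. In the fit of 5 classes 417 genes (2.42%) were called higher in members than in each of the 4 others and 414 (2.41%) lower. In that fit 20.2% of genes were higher and 21.4% lower than in low-score cells, 7.57% and 7.82% against mid-score cells, and 26.3% and 27.4% against dividing cells. Among those with at least 20 CPM in members, 3 exceeded every other class by at least 2-fold. GPM6B, a membrane proteolipid, was at 77.9 and 71.7 CPM in members, 30.9 and 28.5 in mid-score cells, and 13.7 to 25.2 in the other classes. IL1R2, the decoy receptor that binds IL-1 without signalling, was at 153 and 134 CPM against 70.8 and 63.9 in mid-score cells and 25.4 to 38.2 in the others. S100A8, a subunit of the inflammatory protein calprotectin, was at 51.6 and 50.2 CPM against 24.1 and 25.1 in mid-score cells and 5.74 to 17.7 in the others. The score genes were left out of these calls. As a description, RIPOR2 and CXCL13 also exceeded every other class by over 2-fold in mean level.

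The next genes by this measure included MT1X, a metallothionein, at 601 and 536 CPM in members and 268 and 295 in ALB-high cells. CACNB2, a calcium channel subunit, was at 244 and 222 against 101 and 104 CPM, and MMP7, a secreted protease, at 60.7 and 49.6 in members. Among genes lower than in every other class, MYBL2, a transcription factor of the cell cycle, was at 3.76 and 2.67 CPM in members and at 7.87 or more elsewhere. ALB-high and dividing cells were not held to the limit on division genes, and its part in such calls was not tested. CREB5, another transcription factor, was at 14.9 and 17.6 CPM against 33.6 or more elsewhere. MT1X shares close copies with other metallothioneins, so its reads may be split.

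Members with a CXCL13 UMI were then set against the other members, a comparison added after the data were seen. They numbered 131 and 109 cells and had a median score of 0.927 and 0.929, against 0.721 and 0.699 in the others. CXCL13 is part of the score, so this split also sorted the members by score. Acute phase genes rose along the score, as given below. Whether the score difference alone would give the calls that follow was not tested. Of 15151 genes, 209 (1.38%) were higher and 145 (0.957%) lower by edgeR. Of 16 tested acute phase genes 12 were higher and 0 lower. HP was at 205 and 393 CPM in members with CXCL13 and 76.6 and 106 in those without, a log2 fold change of 1.67 ± 0.10 (SE). SERPINA3 was at 153 and 148 against 60.2 and 84.8 CPM. The calprotectin genes rose too, S100A8 at 96.7 and 114 against 36.4 and 31.9 CPM and S100A9 at 174 and 293 against 87.4 and 87.7.

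Some of these values rested on few cells. A single cell gave 19.3% and 17.4% of the HP UMIs in members with CXCL13, and 8% and 20.1% of those of S100A9. EYA4, a phosphatase and transcription cofactor with the highest fold change at 2.34 on the log2 scale, was at 48.1 and 21.4 against 6.37 and 8.84 CPM, and came from 20 and 14 cells. SERPINA3 was more even, in 79 and 55 cells with at most 7.47% from 1 cell. KRT19 was lower, at 282 and 398 CPM in members with CXCL13 against 587 and 584 in those without. None of the 19 S phase genes was called in either direction, which is near the 1.38% of all genes called higher and 0.957% called lower. Of the other score genes, THSD4 was at 128 and 161 CPM against 246 and 258; since members were chosen on the sum of the genes, this is no test.

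The change along the score was gradual. The 4017 cells were put in 10 bins of equal number by score in each library. The summed acute phase genes were at 470 and 516 CPM in the lowest bin, 840 and 949 in bin 5 and 4787 and 5170 in bin 10. The summed microfibril and TGF-beta genes went from 2598 and 2573 CPM to 841 and 864. S phase genes were highest in bin 2, at 1486 and 1457 CPM, and lowest in bin 10, at 629 and 724. The ATF4 targets went from 867 and 945 to 561 and 568 CPM. Mesenchymal genes had 393 and 339 CPM in bin 1 and stayed between 268 and 328 in bins 2 to 10 of both libraries. Median UMIs in bin 10 were 14704 and 9292, against 14925 and 8248 in bin 1, while the mitochondrial share went from 7.71% and 8.25% to 11.4% and 11.3%; its part in these trends was not tested.

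**Figure D5:**
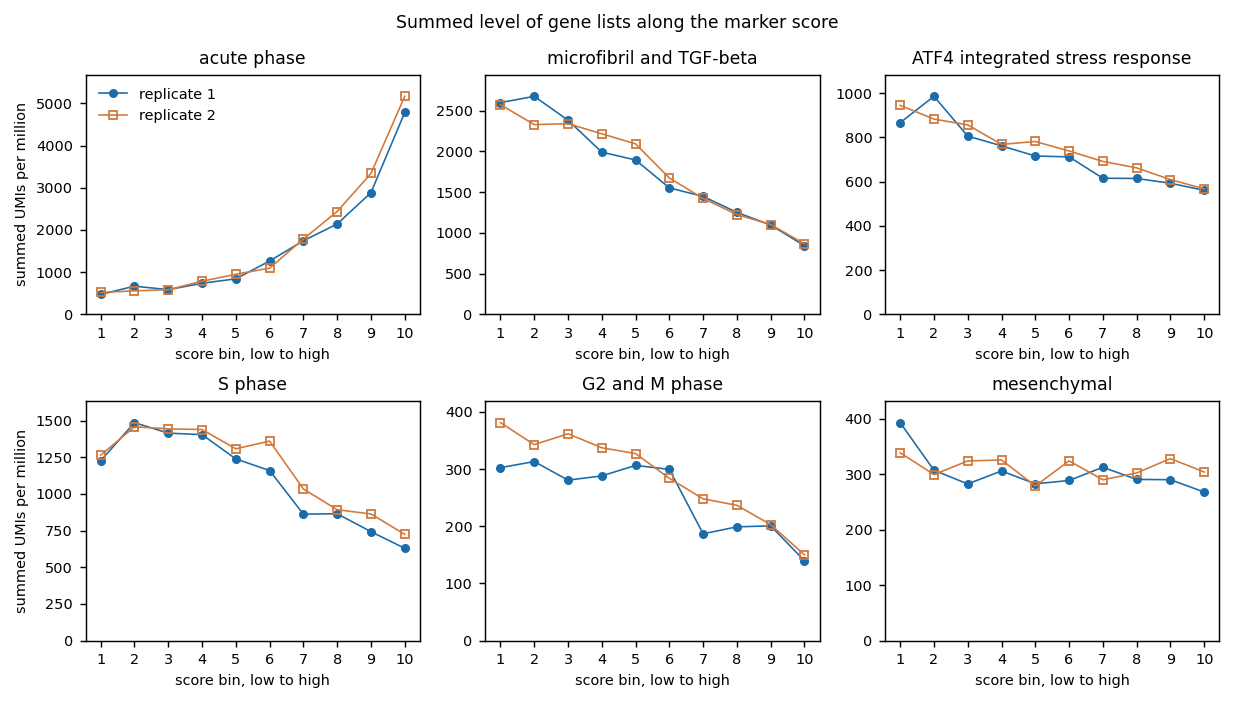
Summed CPM (y axes from 0) of 6 gene lists in 10 bins of equal cell number along the score, low to high, with 1 line per library. Acute phase genes climb to 4787 and 5170 in bin 10, microfibril, ATF4 and cell cycle genes decline, and mesenchymal genes show no such slope beyond bin 1.

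Median ratios per chromosome between members and low-score cells were small. Over 7395 autosomal genes at 20 CPM or more, the median log2 ratio per chromosome ran from -0.065 (chromosome 19) to 0.060 (chromosome 18). At 50 CPM or more the same chromosomes gave -0.12 and 0.16, with 0.081 for chromosome 5 as the next highest. Chromosome 18 was at 0.12 and 0.18 in replicates 1 and 2 at this cut. Whether it differs from the other chromosomes was not tested.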

How the data were processed

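The deposited UMI counts per gene and barcode were made by the authors with Cell Ranger 7.0.0, per the file headers, and STAR with GRCh38, per the submitters' processing notes. Counts were used as deposited. Antibody features held 0 UMIs. Barcodes were kept and scored by the rule given in the report, and UMIs were summed per library and class. No doublet caller was run; leaving out the 4% of scored cells with the most UMIs was an alternative.

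The 6 sums of members, mid-score and low-score cells were fitted with edgeR 4.0.16 (quasi-likelihood, TMM, library as a block, 2 residual degrees of freedom; R 4.3.3), with Benjamini-Hochberg adjustment over all genes except 11 used by the rule. Standard errors are the log2 fold change divided by the root of F. The members and gene lists were chosen with earlier results of these data known. Named genes were the 7 score genes, the 12 highest and 12 lowest called genes at 20 CPM or more, and from each list up to 3 called genes by level and 3 by fold change. Genes named outside this rule were chosen after their values were seen. The fit of 5 classes, the comparison by CXCL13 and the cells with 0 ALB UMIs were added after the data were seen. On simulated sums of 15777 genes for members against low-score cells, edgeR recovered 29 of 50 genes changed 1.25-fold, 49 of 50 at 1.5-fold and 50 of 50 at 2-fold, with 4 false calls. DESeq2 recovered 3, 36 and 47, with 0 false calls. All simulated classes of a library shared a profile apart from 200 changed genes, with a small spread set in advance and no choice of cells by score. The simulation therefore does not give the number of false calls in the data. Library totals and cell numbers are in the report. The replicate numbers are those of the 2 libraries, and each class of a library shares its processing, so the library is the block. Alternatives were DESeq2 1.42.0, RLE scaling, no low-count filter, other cuts of the score, thinned cells, cells chosen on one part of their UMIs and measured in the rest, and leaving out each library. Some genes of the lists are counted in them but not reported here by name.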

Additional observations from a re-analysis of the deposited data

How the results depend on the processing

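Between members and low-score cells 3306 genes were called higher and 3667 lower. These counts were 1455 and 1702 with DESeq2, 1598 and 1710 with cells thinned to 4000 UMIs, 1659 and 1739 in cells with 0 UMIs of TOP2A, MKI67 and CENPF, and 1228 and 1420 with mid-score cells as the comparison. The library block could be left out: with no replicate block 3179 and 3521 genes were called. The summed level of the 7 score genes in members, 1578 CPM, was 1727 with thinned cells, 1441 when cells were chosen on one part of their UMIs and measured in the rest, 2304 in the top 10% of scored cells, and 1505 to 1651 when either library was left out. Of 2540 fold changes and levels of the 151 named genes over 17 alternatives, 2331 were kept, 177 kept direction but lost the call, and 29 moved. With a library left out no test was made. There 132 values were kept without replicate 1 and 139 without replicate 2, and 18 and 11 moved. In the other alternatives a kept value held its direction and side of the threshold. The 3 that reversed were SPP1 (-0.40) and CA9 (-0.25) against mid-score cells, and TBX3, at -0.0161 without replicate 1 and 0.42 without replicate 2. Neither SPP1 nor CA9 was called against mid-score cells. The cause of these changes was not tested. Both libraries carry 1 biological replicate label, and genes of about 1 CPM rest on few UMIs.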
